A study of Homo sapiens with 6 samples.

Results

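CAL62 is a human anaplastic thyroid carcinoma cell line, and the question put to it here was what 48 h with 50 nM erianin, a natural bibenzyl compound of Dendrobium orchids, does to the RNA of 36 genes of cholesterol and fatty acid synthesis and of sterol handling. The 36 genes were listed by symbol and matched to the deposited tables by Ensembl identifier, and the rule that selects them uses no measured value. The set was, however, proposed with earlier results of these data known, so its shares against all genes below are descriptions. Of the 36 genes, 35 had a row, and all 35 passed the filter on low counts, among 12821 genes tested of 39168 identifiers. ACACA, which makes malonyl-CoA for fatty acid synthesis, was not analysed here. Bulk RNA of wild-type CAL62 cells was sequenced in 6 libraries, of which 3 were treated with erianin and 3 with the solvent DMSO for the same 48 h. All cells grew in the same serum-containing medium, and the 6 libraries come from 1 cell line. Nothing in the labels states that the replicates were separate cultures, so the p-values below measure the spread between these libraries, which may be technical.

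Cells make cholesterol from acetyl-CoA through the mevalonate pathway, and the sterol regulatory element-binding proteins (SREBPs) switch on its genes when membrane sterol is low. SCAP escorts the SREBPs from the endoplasmic reticulum to the Golgi for cleavage, and the INSIG proteins hold SCAP back when sterols are plentiful. SREBF2 encodes the SREBP that acts mainly on cholesterol genes, and SREBF1 encodes the forms that act mainly on fatty acid genes. Liver X receptors (LXRs) bind oxysterols and switch on genes of sterol export, among them ABCA1 and ABCG1, and also MYLIP.

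The libraries held between 25776301 and 34107727 counts on genes with an identifier. DMSO replicate 3 stood apart from the other 5 libraries. Leaving it out lowered edgeR's coefficient of biological variation from 0.139 to 0.0421. This library lay below both other DMSO libraries for 27 of the 35 genes, against 5513 of the 12821 genes tested. It was the lowest of all 6 libraries for 22 of the 35, against 3734 of the 12821. Each of the listed genes that passed the test is therefore given with and without it. Of the thyroid markers, PAX8 was abundant and passed the test as lower with erianin (log2 fold change -0.66, adjusted p = 0.00403, edgeR, and -0.59 without DMSO replicate 3), NKX2-1 and TSHR had no count in any library, FOXE1 lay between 1.07 and 2.28 CPM (counts scaled to library size) and TG, SLC5A5 and DIO1 stayed under 1. The 7 thyroid markers reported here summed to between 644 and 742 CPM with DMSO and between 421 and 435 with erianin, nearly all of it PAX8, and the epithelial list of 4 genes to between 2312 and 3131 with DMSO and between 2520.0 and 2689 with erianin. The summed level of the 3 leukocyte markers was at most 0.343 CPM and that of the 3 endothelial markers at most 0.771. VIM and FN1, the mesenchymal markers, summed to between 6425 and 8325 CPM with DMSO and between 4027 and 4573 with erianin. The part of these markers in the results below was not tested. In bulk RNA, fewer cells with a transcript and less of it per cell cannot be told apart.

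The 35 genes did not move one way. With erianin 19 were higher and 16 lower, and the median log2 fold change was 0.02, against 0.00 over all genes tested. The members of the sterol traffic and LXR target group were all higher, 5 of 5 with a median of 0.61. Of these 5, ABCG1 and NPC1 did not pass the test. By contrast, 6 of the 7 measured fatty acid genes were lower, with a median of -0.16. ACLY, FASN and SCD among them turned slightly positive in limma on TPM. TPM here are the deposited reads scaled to gene length and library total. The mevalonate and sterol enzymes were split. A gene was called changed at an adjusted p under 0.05 in edgeR's quasi-likelihood test, with Benjamini-Hochberg adjustment over all genes tested, and an absolute log2 fold change over 0.5. Of the 35 genes, 6 rose, ABCA1, MYLIP, INSIG1, HMGCS1, IDI1 and STARD4, against 5.37% of all genes tested, and 1, TM7SF2, fell, against 3.36%. With the adjusted p alone, 7 of 35 passed as higher, against a background of 7.22%, and 6 of 35 as lower, against 7.69%. The levels of the 2 groups did not overlap for 9 of 35 genes that were higher, against 19.5% of all genes, and for 7 of 35 that were lower, against 19.3%. The 9 are 25.7% of the 35. In limma on TPM, where the median over all genes was shifted up by 0.18, the calls were 6 higher and 0 lower of 33 genes. The TPM fold changes given for single genes keep that shift. ABCA1 was under the TPM minimum and had no value there, and MSMO1 was called in its place.

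**Figure D1:**
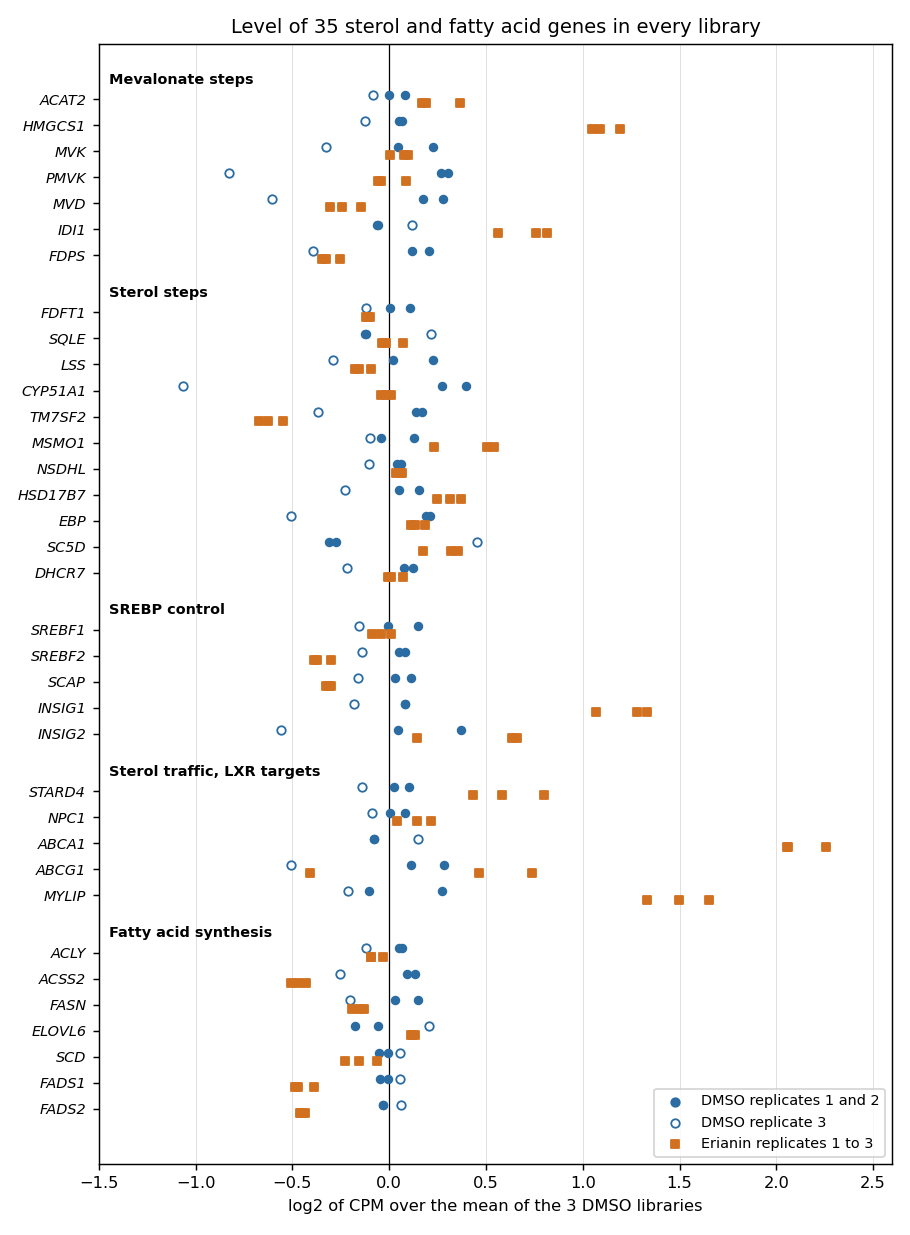
Level of 35 genes in every library, as log2 of CPM over the mean of the 3 DMSO libraries, by role. Filled circles are DMSO replicates 1 and 2, open circles DMSO replicate 3 and squares the 3 erianin libraries; ABCA1, MYLIP, INSIG1 and HMGCS1 lie farthest to the right, and DMSO replicate 3 is the lowest of the 6 for 22 genes.

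Sequence before the start site is shown for the 6 genes that rose and for SREBF2, whose stretch was added after the search because it alone held a sterol regulatory element core. The stretches come from RefSeq on GRCh38.p14, and 31 of the 36 genes matched that table (FASN, ACAT2, FDFT1, SQLE and ABCG1 did not). Each is the longest run within the 250 bases before the RefSeq start that lies outside the exons of protein-coding genes in GENCODE v29. For TM7SF2 no such run exists, so none is printed. Capitals mark, on either strand, TCACNCCAC (the sterol regulatory element core), CCAAT (the box bound by NF-Y) and GGGCGG (the box bound by Sp1).
INSIG1, chr7:155297628-155297775, plus strand: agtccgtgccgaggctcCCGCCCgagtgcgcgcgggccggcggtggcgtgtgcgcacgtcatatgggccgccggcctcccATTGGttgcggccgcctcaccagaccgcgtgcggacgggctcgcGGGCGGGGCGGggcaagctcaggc
HMGCS1, chr5:43313513-43313662, minus strand: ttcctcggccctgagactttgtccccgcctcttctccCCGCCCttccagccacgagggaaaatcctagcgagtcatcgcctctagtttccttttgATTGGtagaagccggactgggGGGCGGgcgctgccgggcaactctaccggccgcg
IDI1, chr10:1056705-1056846, minus strand: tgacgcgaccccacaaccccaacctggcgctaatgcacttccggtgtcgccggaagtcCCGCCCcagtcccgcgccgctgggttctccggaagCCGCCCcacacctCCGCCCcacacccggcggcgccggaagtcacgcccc
STARD4, chr5:111512591-111512785, minus strand: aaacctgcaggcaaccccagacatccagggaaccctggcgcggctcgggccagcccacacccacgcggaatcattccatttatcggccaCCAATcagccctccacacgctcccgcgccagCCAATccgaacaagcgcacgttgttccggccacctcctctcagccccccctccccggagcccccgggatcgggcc
MYLIP, chr6:16128836-16129085, plus strand: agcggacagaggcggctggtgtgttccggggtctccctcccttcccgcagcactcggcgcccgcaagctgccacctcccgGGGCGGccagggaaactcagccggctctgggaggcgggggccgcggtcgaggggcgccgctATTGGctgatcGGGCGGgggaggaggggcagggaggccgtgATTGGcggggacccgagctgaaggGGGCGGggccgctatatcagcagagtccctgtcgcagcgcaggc
ABCA1, chr9:104928238-104928405, minus strand: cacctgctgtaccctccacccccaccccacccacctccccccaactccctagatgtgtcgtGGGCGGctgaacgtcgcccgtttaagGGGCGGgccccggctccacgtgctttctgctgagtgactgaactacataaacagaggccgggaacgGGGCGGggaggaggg
SREBF2, chr22:41832855-41833078, plus strand: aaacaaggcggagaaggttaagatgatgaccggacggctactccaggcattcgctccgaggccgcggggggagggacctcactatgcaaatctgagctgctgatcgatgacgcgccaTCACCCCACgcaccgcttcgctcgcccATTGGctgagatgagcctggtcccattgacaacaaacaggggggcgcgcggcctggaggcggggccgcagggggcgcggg

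In INSIG1 the run of 11 capitals holds 2 overlapping GGGCGG copies. The SREBF2 stretch lies inside an exon of the noncoding antisense gene SREBF2-AS1, and its TCACNCCAC match begins 133 bases before the start. Over the full 250 bases, TCACNCCAC was found in 1 of 31 genes, against 0.839% of the promoters of genes tested and 0.875% of all promoters in the table. CCAAT was in 19 of 31, or 61.3%, against 34.5% of the promoters of genes tested, and GGGCGG in 29 of 31, or 93.5%, against 68.0%. A match describes these letters in this window and is not a binding site, and RefSeq's IDI1 start lies upstream of the GENCODE gene. The windows of FADS1, FADS2, ACLY and DHCR7, among others, lie inside the GENCODE gene, and the shares of 31 include them.

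Among the genes of SREBP control, INSIG1 rose and SREBF2 and SCAP passed as lower. INSIG1 (ENSG00000186480, chr7:155297776-155310235 in GRCh38), the sterol-sensing anchor that holds SCAP back, stood at 53.4, 53.4 and 44.4 CPM in the DMSO libraries and at 106, 127 and 123 in the erianin libraries. Every erianin library was above every DMSO library, and the mean rose from 50.4 ± 5.22 to 118 ± 11.2 CPM (SD, n = 3). The fitted log2 fold change was 1.23 (SE 0.11, adjusted p = 0.00150, edgeR). Without DMSO replicate 3 the log2 fold change was 1.14.

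SREBF2 was the third most abundant of the 35 genes per length, at 137 ± 17.9 TPM with DMSO. It stood at 563, 576 and 492 CPM with DMSO and 416, 441 and 419 with erianin, so that no erianin library reached the lowest DMSO library. The log2 fold change was -0.35 (SE 0.08, adjusted p = 0.0283, edgeR), short of the fold threshold, and -0.42 without DMSO replicate 3. With any other single library left out the adjusted p lay between 0.0874 and 0.134. On the TPM scale it was -0.15 with an adjusted p of 0.364 in limma. SCAP, the escort protein, stood at 147, 156 and 129 CPM with DMSO and at 116, 117 and 115 with erianin. Its groups did not overlap either, and its log2 fold change was -0.31 (SE 0.09, adjusted p = 0.0477, edgeR), or -0.39 without DMSO replicate 3. With any other single library left out the adjusted p lay between 0.125 and 0.184, and limma on TPM gave -0.11 with an adjusted p of 0.533. The other 2 genes of this group did not pass, SREBF1 at -0.04 (adjusted p = 0.817) and INSIG2, the second INSIG gene, at 0.50 (adjusted p = 0.211, edgeR), where DMSO replicate 3 was the lowest library at 7.45 CPM. Without that library INSIG2 was at 0.29 with an adjusted p of 0.0398 in edgeR.

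In the mevalonate steps, which lead from acetyl-CoA to farnesyl diphosphate, 2 of 7 genes rose and 0 fell. With all 6 libraries, 0 were lower at an unadjusted p under 0.05 in edgeR, in DESeq2 or in limma on TPM. HMGCS1 (ENSG00000112972, chr5:43289395-43313512), the synthase that makes HMG-CoA, stood at 48.9, 49.6 and 43.5 CPM with DMSO and 97.9, 108 and 101 with erianin. The groups were far apart, with means of 47.3 ± 3.37 and 102 ± 5.41 CPM, and the log2 fold change was 1.11 (SE 0.09, adjusted p = 0.00102, edgeR), or 1.05 without DMSO replicate 3. IDI1 (ENSG00000067064, chr10:1039152-1049170), the isomerase that makes dimethylallyl diphosphate, stood at 33.0, 33.1 and 37.5 CPM with DMSO and at 51.0, 60.7 and 58.5 with erianin. Here DMSO replicate 3 was the highest control, and the groups still did not overlap. Its log2 fold change was 0.72 (SE 0.10, adjusted p = 0.00639, edgeR), or 0.77 without DMSO replicate 3, and the adjusted p was 0.0507 without erianin replicate 2 and 0.0522 without erianin replicate 3. HMGCS1 shares 14.95% and IDI1 14.8% of its exon bases with an antisense gene, and whether the counting used strand is not given in the sources used here. The count for the antisense gene at IDI1 was 0 in every library, but a 0 does not show that its transcript was absent. Whether its reads entered the IDI1 count was not tested.

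PMVK, the kinase that makes mevalonate diphosphate, and MVD, the decarboxylase that follows it, were the most abundant of this group per length. PMVK stood at 21.1, 20.6 and 9.63 CPM with DMSO and at 16.5, 18.2 and 16.6 with erianin. MVD stood at 159, 148 and 86.1 CPM with DMSO and at 110.5, 106 and 118 with erianin. In both genes the erianin libraries lay between DMSO replicate 3 and the other 2 DMSO libraries. The log2 fold changes were -0.00 for PMVK (adjusted p = 0.999) and -0.23 for MVD (adjusted p = 0.503, edgeR). Without DMSO replicate 3 they were -0.29 (adjusted p = 0.00385) and -0.46 (adjusted p = 1.01e-09, edgeR). FDPS, the farnesyl diphosphate synthase, was at -0.31, ACAT2, the cytosolic thiolase that opens the pathway, at 0.24 and MVK, mevalonate kinase, at 0.06. None of these passed in edgeR with all 6 libraries. Without DMSO replicate 3, FDPS was at -0.47 (adjusted p = 1.18e-09), ACAT2 at 0.20 (adjusted p = 0.0303) and MVK at -0.09 (adjusted p = 0.311, edgeR). In limma on TPM, where the median of all genes was itself shifted to 0.18, ACAT2 passed the adjusted p, at 0.43 (adjusted p = 0.0330). ACAT2 shares 26.5% of its exon bases with SOD2, 33.9% with SOD2-OT1 and 9.23% with TCP1, all on the opposite strand. TCP1 had 35489 counts over all libraries. FDPS shares 18.6% of its exon bases with RUSC1-AS1 on the opposite strand. Whether reads of these genes entered the ACAT2 and FDPS counts was not tested.

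Of the 11 enzymes that make squalene and lead from it to cholesterol, 1 fell, 1 passed the test as higher below the fold threshold, and 9 did not pass. TM7SF2 (ENSG00000149809, chr11:65111845-65116384), a sterol C14 reductase, stood at 124, 127 and 87.4 CPM with DMSO and 73.1, 70.7 and 77.1 with erianin. The groups did not overlap, but DMSO replicate 3 lay nearer to the erianin libraries than to the other controls. The log2 fold change was -0.62 (SE 0.14, adjusted p = 0.0289, edgeR), and it was -0.78 without DMSO replicate 3. Leaving out any one of the other 5 libraries gave an adjusted p between 0.0872 and 0.124, and limma on TPM gave -0.38 with an adjusted p of 0.186. MSMO1, the C4 methyl sterol oxidase, stood at 38.9, 34.6 and 33.3 CPM with DMSO and at 41.8, 50.5 and 51.7 with erianin. No erianin library reached down to the highest DMSO library, and the log2 fold change was 0.43 (SE 0.11, adjusted p = 0.0429, edgeR), or 0.39 without DMSO replicate 3. With any other single library left out the adjusted p lay between 0.0671 and 0.186. With an offset for GC content it was 0.29 with an adjusted p of 0.237, and limma on TPM called it at 0.61 with an adjusted p of 0.0233. The median of all genes in that TPM fit was itself shifted to 0.18.

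DHCR7, the reductase that makes cholesterol from 7-dehydrocholesterol, and SQLE, the squalene epoxidase, were the most abundant sterol enzymes per length. DHCR7 stood at 233, 225 and 184 CPM with DMSO and at 213, 225 and 215 with erianin. SQLE stood at 96.2, 96.2 and 122 CPM with DMSO and at 102, 109.9 and 103 with erianin. In both genes the groups overlapped, since DMSO replicate 3 was the lowest library for DHCR7 and the highest for SQLE. Their log2 fold changes were 0.02 (SE 0.10) and 0.00 (SE 0.11). The remaining enzymes lay between -0.14 for LSS, the cyclase that makes lanosterol, and 0.31 for HSD17B7, the sterol ketoreductase. Between them were FDFT1, the squalene synthase, at -0.11, CYP51A1, the lanosterol demethylase, at -0.02, NSDHL, the sterol dehydrogenase, at 0.05, EBP, the sterol isomerase, at 0.14, and SC5D, the sterol desaturase, at 0.28. None of these 7 passed with all 6 libraries. CYP51A1 shares 79.4% of its exon bases with another gene model on the same strand, so its counts are uncertain, and its DMSO values ran from 7.03 to 19.4 CPM. SC5D was called higher when DMSO replicate 3 was left out, at 0.57 (adjusted p = 8.12e-06, edgeR).

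In the group of sterol traffic genes and LXR targets, 3 of 5 rose. ABCA1 (ENSG00000165029, chr9:104781002-104928237), the exporter that loads cholesterol onto apolipoproteins, stood at 0.493, 0.493 and 0.578 CPM with DMSO and 2.49, 2.18 and 2.17 with erianin, from 12, 16 and 18 counts against 85, 76 and 76. All erianin libraries were far above all DMSO libraries. The log2 fold change of 2.12 (SE 0.21, adjusted p = 0.00214, edgeR) was the largest of the 35, at one of the lowest levels, 0.222 TPM with DMSO, and it was 2.19 without DMSO replicate 3. MYLIP (ENSG00000007944, chr6:16129125-16148248), a ubiquitin ligase that sends lipoprotein receptors for degradation, stood at 3.37, 2.59 and 2.41 CPM with DMSO and at 7.03, 7.87 and 8.76 with erianin. Its groups did not overlap, and the log2 fold change was 1.51 (SE 0.17, adjusted p = 0.00351, edgeR), or 1.42 without DMSO replicate 3. ABCG1, the other LXR-driven exporter, was at 0.34 (SE 0.40, adjusted p = 0.611, edgeR), from 10 to 26 counts a library, and its groups overlapped.

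STARD4 (ENSG00000164211, chr5:111496033-111512590), a soluble sterol carrier, stood at 24.4, 23.1 and 20.6 CPM with DMSO and at 30.7, 39.5 and 34.0 with erianin. Each erianin library was above each DMSO library, and the log2 fold change was 0.61 (SE 0.12, adjusted p = 0.0182, edgeR), or 0.55 without DMSO replicate 3. The adjusted p was 0.102 with the GC offset, and 0.0563, 0.0559, 0.0880 and 0.0869 without DMSO replicate 2 and erianin replicates 1, 2 and 3. NPC1, which moves cholesterol out of lysosomes, was the most abundant of this group, at 147, 155 and 138 CPM with DMSO and 162, 170.2 and 150.5 with erianin. The groups overlapped, and the log2 fold change was 0.13 (SE 0.08, adjusted p = 0.296, edgeR).

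**Figure D2:**
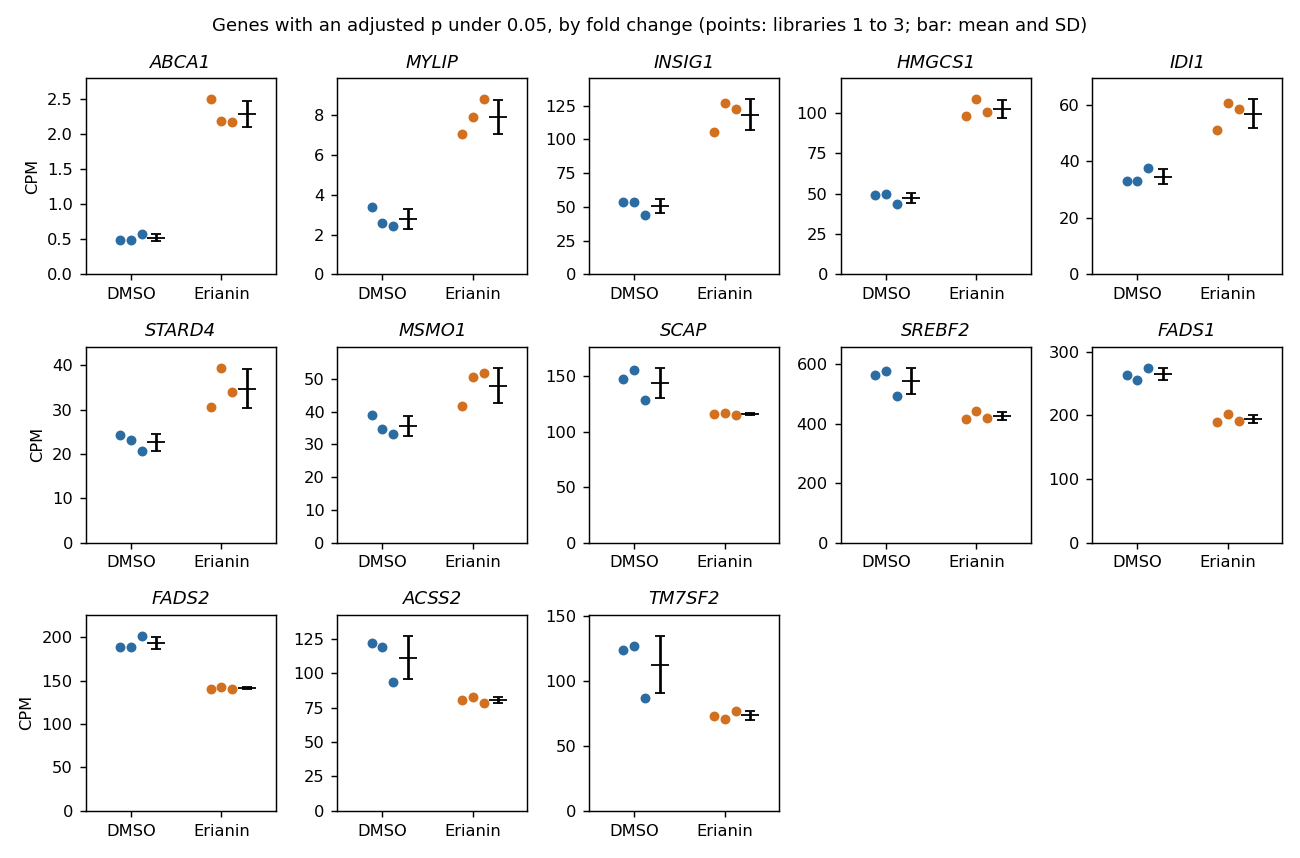
Level in CPM of the 13 genes with an adjusted p under 0.05 in edgeR, in each DMSO and erianin library, with the mean and SD of each group (n = 3) and axes that start at 0. In all 13 genes the erianin libraries lie wholly above or wholly below the DMSO libraries.

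Of the 7 measured fatty acid genes 0 were called in either direction by edgeR, DESeq2 or limma on TPM, and 3 passed edgeR's adjusted p as lower, which are also the 3 that were lower at an unadjusted p under 0.05. At an unadjusted p under 0.05, 0 were higher in edgeR and in DESeq2, and 1 in limma on TPM, which was ELOVL6. FADS1 and FADS2, neighbouring genes for the delta-5 and delta-6 desaturases of polyunsaturated fatty acids, had close values. FADS1 stood at 264, 256 and 275 CPM with DMSO and at 189, 202 and 191 with erianin. FADS2 stood at 189, 189 and 201 CPM with DMSO and at 140.8, 143 and 140.5 with erianin. In both genes the groups did not overlap and DMSO replicate 3 was the highest library. The log2 fold changes were -0.45 for FADS1 (SE 0.07, adjusted p = 0.00754) and -0.45 for FADS2 (SE 0.06, adjusted p = 0.00655, edgeR). With 1 erianin library left out, the adjusted p reached 0.0615 for FADS1 and 0.0573 for FADS2. Without DMSO replicate 3 both were -0.42, and limma on TPM gave -0.25 for each. The genes share exon bases at their ends on opposite strands, 4.79% of those of FADS1. ACSS2, which makes acetyl-CoA from acetate, stood at 122, 119 and 93.3 CPM with DMSO and at 80.4, 82.6 and 78.3 with erianin. The groups did not overlap, and the log2 fold change was -0.47 (SE 0.11, adjusted p = 0.0299, edgeR), or -0.59 without DMSO replicate 3, which passes the fold threshold. With any other single library left out the adjusted p lay between 0.0911 and 0.134. By limma on TPM it was -0.25 with an adjusted p of 0.251.

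SCD, the desaturase that makes oleate, and FASN, the fatty acid synthase, were the most abundant of all 35 genes per length, at 357 ± 7.37 and 194 ± 32.6 TPM with DMSO. SCD stood at 324, 314 and 339 CPM with DMSO and at 278, 312 and 293 with erianin. FASN stood at 709.9, 772 and 605 CPM with DMSO and at 609, 635 and 627 with erianin. The SCD groups did not overlap by a small margin, and for FASN DMSO replicate 3 was below the erianin libraries. Neither passed, with log2 fold changes of -0.15 (adjusted p = 0.220) and -0.16 (adjusted p = 0.319, edgeR), and both were 0.05 by limma on TPM, where the median of all genes was itself shifted to 0.18. ACLY, which makes cytosolic acetyl-CoA from citrate, was at -0.07 and ELOVL6, the elongase of palmitate, at 0.12, and neither passed in edgeR with all 6 libraries. ELOVL6 passed the adjusted p in limma on TPM, at 0.31 (adjusted p = 0.0435), and in edgeR without DMSO replicate 3, at 0.23 (adjusted p = 0.00545).

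**Figure D3:**
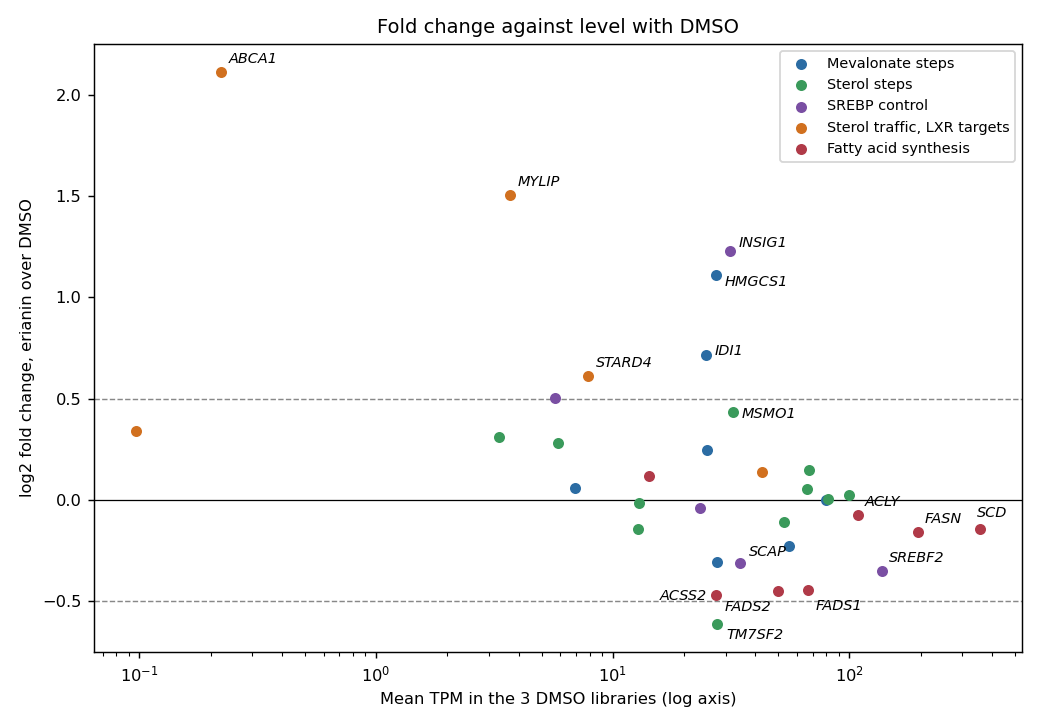
Log2 fold change of the 35 genes against mean TPM with DMSO, on a log axis, coloured by role, with dashed lines at the fold threshold of 0.5. The largest fold change, of ABCA1, is at 0.222 TPM, while SCD and FASN, at 357 and 194 TPM, lie close to 0.

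Leaving out DMSO replicate 3 raised the counts of calls for these genes and for all genes. Without it 7 of 35 were called higher, SC5D joining the 6, against 11.4% of all genes, and 2 were called lower, TM7SF2 and ACSS2, against 6.11%. On the adjusted p alone, 12 of 35 passed as higher, or 34.3% against 27.5% of all genes, and 16 of 35 as lower, or 45.7% against 27.7%. The 16 included PMVK, MVD, FDPS, FDFT1, LSS, CYP51A1, SREBF1, ACLY, FASN and SCD, which did not pass with all 6 libraries. The 12 included ACAT2, SQLE, SC5D, INSIG2 and ELOVL6, which did not pass with all 6 either. DMSO replicate 3 lay below both other DMSO libraries for 77.1% of the 35 genes, against 43.0% of all genes tested. Without it only DMSO replicates 1 and 2 remain as controls, and its part in these shares was not tested. ABCA1, MYLIP, INSIG1 and HMGCS1 had an adjusted p under 0.05 in edgeR with any 1 of the 6 libraries left out.

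**Figure D4:**
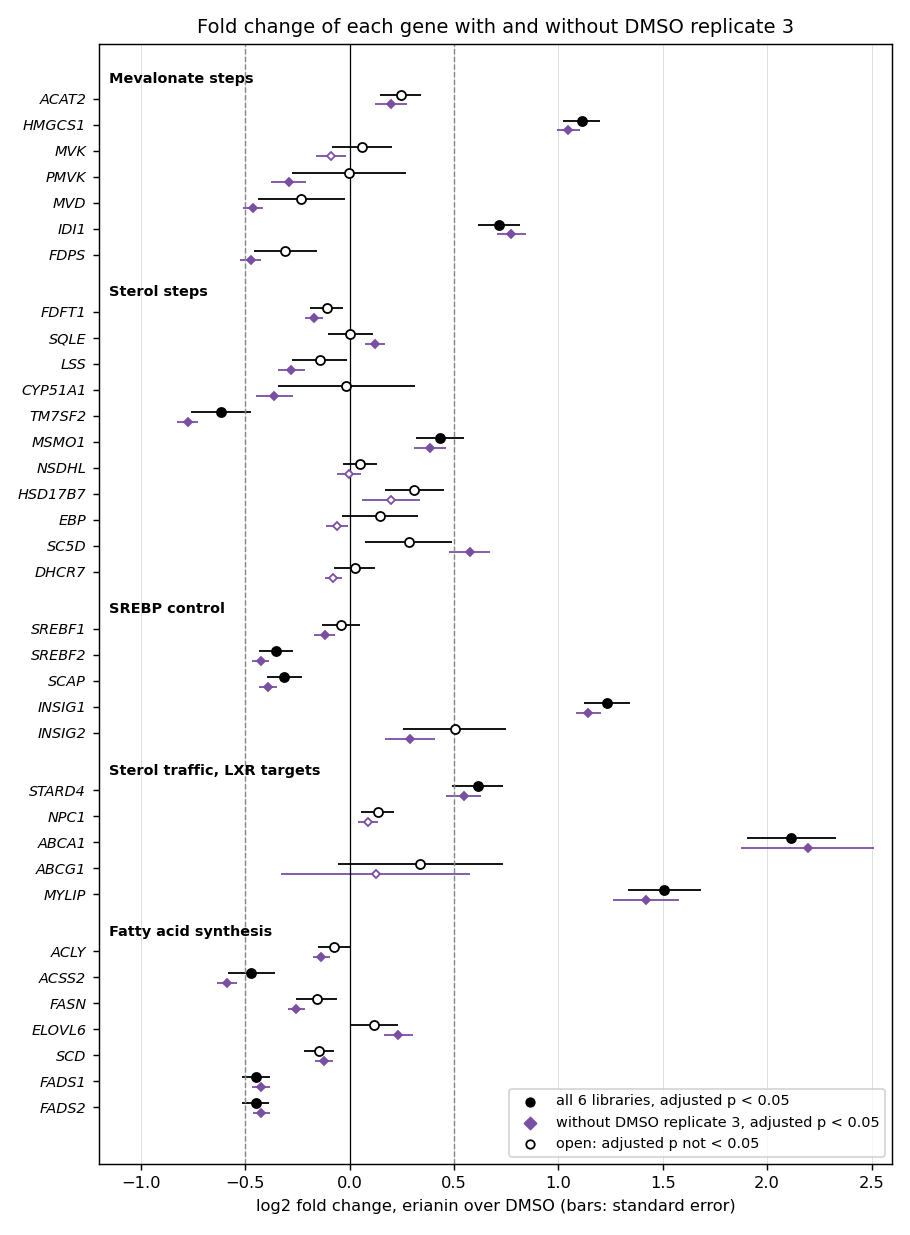
Log2 fold change of each gene, erianin over DMSO, with its standard error, with all 6 libraries (circles) and without DMSO replicate 3 (diamonds). Filled symbols mark an adjusted p under 0.05 in edgeR; 13 of 35 circles and 28 of 35 diamonds are filled.

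The other genes of these pathways were read from 5 lists of 51 genes, of which 49 were tested. Of the 49, 0 were called higher by edgeR, where 8 were higher at an unadjusted p under 0.05, and 0 by DESeq2, while limma on TPM called 4. By edgeR 1 was called lower, TMEM97, a sterol-responsive membrane protein that binds NPC1. TMEM97 stood at 28.9, 30.8 and 34.6 CPM with DMSO and at 20.2, 20.9 and 20.8 with erianin, with no overlap. Its log2 fold change was -0.61 (SE 0.10, adjusted p = 0.00994, edgeR), or -0.54 without DMSO replicate 3. The adjusted p was 0.0637, 0.0621 and 0.0658 without erianin replicates 1, 2 and 3, and limma on TPM gave -0.39, short of the fold threshold (adjusted p = 0.0142). On the adjusted p alone, 1 of 49 was higher, against 7.22% of all genes, and 4 lower, against 7.69%, which is a share near the background. The gene that was higher was ACSL1, a fatty acid activating enzyme, at 0.45 (adjusted p = 0.0375). Those lower were TMEM97, MBTPS1, the site-1 protease that cleaves SREBPs, at -0.33 (adjusted p = 0.0158), GRAMD1A, a sterol transfer protein, at -0.45 (adjusted p = 0.00675), and NR1H3, which encodes LXR alpha, at -0.40 (adjusted p = 0.0392, edgeR). Without DMSO replicate 3 these were 0.34 for ACSL1, -0.32 for MBTPS1, -0.48 for GRAMD1A and -0.47 for NR1H3. All 4 had an adjusted p above 0.05 with any 1 erianin library left out, as had MBTPS1 without DMSO replicate 2 and ACSL1 and NR1H3 without DMSO replicate 1 or 2. By list, the adjusted p was passed by 0 genes higher and 1 lower of 7 in SREBP processing and sterol-regulated degradation, and by 0 higher and 2 lower of 12 in sterol storage, uptake and transfer. It was passed by 0 higher and 1 lower of 5 in nuclear receptors and LXR genes, and by 1 higher and 0 lower of 16 in fatty acid supply, elongation and activation. In the isoprenoid branches, which use farnesyl diphosphate for other products, 0 of 9 passed in edgeR, with 1 higher and 1 lower at an unadjusted p under 0.05. Limma on TPM passed 1 of these 9 as higher and DESeq2 1 as lower. ACSL1 and NR1H3 are named here because they passed, after their values were seen. NR1H2, which encodes LXR beta and is the most abundant of its list, was at -0.20 (adjusted p = 0.466, edgeR).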

How the data were processed

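Bulk RNA-seq of CAL62 cells was analysed in 3 DMSO and 3 erianin libraries, grouped by the labels. The deposited count table holds whole reads per gene, not normalized, and the deposited TPM table holds values that the authors scaled by gene length and library total. Per the labels, fastp 0.23.2, STAR 2.7.10, featureCounts 2.0.1 and StringTie 2.2.1 were used on GRCh38. Their settings, the annotation and strandedness are not given in the sources used here. The TPM columns hold between 59.1% and 78.3% of their full total in the rows of the table, lowest for DMSO replicate 3.

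Rows without an identifier, at most 0.00515% of counts, were left out, and of rows sharing an identifier the one with most counts was taken. Counts of 25776301 to 34107727 per library were filtered with filterByExpr, scaled by TMM and tested with edgeR 4.0.16 (glmQLFit and glmQLFTest, R 4.3.3), with Benjamini-Hochberg adjustment. CPM used the TMM library sizes. The alternatives were DESeq2 1.42.0, which the study names, other scalings and filters, limma 3.58.1 on log2(TPM + 1) for genes averaging 1 TPM or more, a loess GC offset (span 0.5), a replicate block and each library left out. On simulated counts edgeR recovered 200 of 200 changed genes with 6 false calls among 12540 genes. The simulated log2 changes were all 1 in size, up or down, in genes above a minimum level. No simulated library was outlying, and the coefficient of biological variation was below that of the 6 libraries here. The simulation therefore does not measure power or false calls for the smaller changes in these data.

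The set of genes, the lists and the tests were proposed with earlier results of these data known. All listed genes are named. Values in every library are given for those with an adjusted p under 0.05 and for the 2 most abundant of each role group. Of the other lipid genes, called genes and up to 2 per list by mean CPM are named. Promoters were searched for all genes with an entry and are shown for called genes, and for 1 more added after the search. Depth limits precision through counting error, and intervals are given as standard errors between libraries. Positions are those of GENCODE v29. Some genes of these pathways and 1 marker are not reported here.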

Additional observations from a re-analysis of the deposited data

How the results depend on the processing

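Over 10 alternatives that kept all 6 libraries, 346 fold changes of the 35 genes were refitted, and 38 changed sign. Counting also the fits with 1 library left out, 14 genes changed sign in at least 1 alternative, and none of them is among the 13 with an adjusted p under 0.05. The cause was not tested. The genes called higher numbered 4 to 7 over all alternatives. Those called lower numbered 0 by limma on TPM with either pseudocount or without the filter, 0 with the replicate block, 0 with a fold threshold of 1 and 6 with none. With 1 library left out they numbered 0 to 2. Of the other lipid genes, 1 was called higher with upper-quartile factors, 4 by limma on log2(TPM + 1) with or without the filter, 5 on log2(TPM + 0.1) and 1 without a fold threshold, and 0 to 3 with 1 library left out. Called lower were 0 by limma on TPM under all 3 settings, 0 with a fold threshold of 1, 4 without one, and 0 to 2 with 1 library left out.

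Same-numbered deviations from the group means correlated at 0.00138, 0.0253 and -0.0329, which gives no sign of pairing by replicate number. The departure of DMSO replicate 3 enters every DMSO deviation, so these correlations cannot decide whether the libraries are paired. With the replicate block 5 genes were called higher and 0 lower, with STARD4 at an adjusted p of 0.0524 and TM7SF2 at 0.0686, and PMVK turned to 0.072 and CYP51A1 to 0.094. The adjusted p of SREBF2, SCAP, ACSS2 and MSMO1 was also above 0.05 under the block.

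The deposited TPM held 73.5%, 72.6% and 59.1% of their full total with DMSO and 77.2%, 75.1% and 78.3% with erianin. They were not rescaled before limma, and the part of these unequal totals in the TPM results was not tested. Limma on TPM, which shifts the median of all genes by 0.12 to 0.20, turned 9 genes from lower to higher. PMVK was at 0.27, 0.28 and 0.27 on log2(TPM + 1), log2(TPM + 0.1) and without the filter, CYP51A1 at 0.28, 0.31 and 0.28, SREBF1 at 0.16, 0.16 and 0.16, ACLY at 0.13, 0.13 and 0.13, FDFT1 at 0.089, 0.091 and 0.089, LSS at 0.064, 0.070 and 0.064, FASN at 0.047, 0.047 and 0.047, SCD at 0.051, 0.051 and 0.051, and MVD at 0.014, 0.016 and 0.014. Upper-quartile factors turned PMVK to 0.055, CYP51A1 to 0.042 and SREBF1 to 0.014. The GC offset turned PMVK to 0.10, SREBF1 to 0.035 and SQLE to -0.064. SQLE was at -0.0048 in DESeq2 and -0.014 without the low-count filter, and PMVK at 0.0072 with at least 10 counts in every library.

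With 1 library left out, the range was -0.087 to 0.18 for MVK, -0.29 to 0.17 for PMVK, -0.058 to 0.12 for SQLE, -0.36 to 0.24 for CYP51A1, -0.0023 to 0.078 for NSDHL, -0.061 to 0.26 for EBP, -0.078 to 0.085 for DHCR7 and -0.12 to 0.038 for SREBF1. Depth is lowest for ABCG1 and ABCA1, at 10 to 26 and 12 to 85 counts a library.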
